A study of Mus musculus with 6 samples.

Results

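The nuclear genes of oxidative phosphorylation were followed in mRNA-seq libraries from splenic γδ T cells of C57BL/6 mice. They were taken by gene symbol alone: symbols beginning with Nduf, Uqcr or Atp5, the numbered Cox families from Cox4 to Cox8, the Sdh genes, Cyc1 and Cycs, with the 7 pseudogenes whose symbols end in -ps left out. This gave 95 of the 52550 listed genes: 36 subunits of complex I, 4 of complex II, 9 of complex III, 20 of complex IV, 15 of complex V, cytochrome c, and 10 assembly or associated factors that carry the same symbols. Of these, 90 passed the filter on low values, a minimum of 10 normalized counts in 3 or more of the 6 libraries.

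The DON group (n = 3 libraries) was cultured with IL-23, IL-1β and DON, an agent that the labels do not spell out, and the control group (n = 3) with IL-23 and IL-1β only. Both groups were kept for 3 days in RPMI medium with serum, and anti-CD3 and anti-CD28 on the plates stimulated them through the T cell receptor complex and its costimulator. γδ T cells are the lineage of T lymphocytes that pairs a γ with a δ receptor chain, and IL-23 with IL-1β makes some of them secrete interleukin 17. The comparison asked how transcript levels differed when DON was present, and the labels do not say whether the libraries of a group are separate mice or cultures.

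Oxidative phosphorylation takes place in the inner mitochondrial membrane. Complexes I and II pass electrons from NADH and succinate to ubiquinone, complex III passes them on to cytochrome c, and complex IV hands them to oxygen; complexes I, III and IV pump protons, and complex V uses the gradient to make ATP. All complexes but complex II combine nuclear subunits with subunits encoded in mitochondrial DNA, and since each of the 13 mitochondrially encoded subunit genes was listed at 0 throughout, only the nuclear partners were measured. γδ T cells that make interleukin 17 are known for relying on oxidative metabolism more than those that make interferon γ.

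Each library held 33715873 to 40840099 recovered units, with 21122 to 21600 genes above 0. DON libraries 2 and 3 stood apart from the rest in base composition and in transcript length. The Spearman correlation across genes between a library's deviation from the gene mean and transcript GC content was 0.330 and 0.323 in them. It was -0.218 in DON library 1 and between -0.269 and -0.131 in the controls. With transcript length the correlation was -0.181 and -0.137 in DON libraries 2 and 3, 0.012 in DON library 1 and 0.073 to 0.098 in the controls. Trdc, which encodes the constant part of the δ chain, averaged 4451 normalized counts in DON and 4568 in control libraries. Of 8 γδ T cell and CD3 genes chosen, 5 were listed, and 1 of these was called higher in DON. Their median log2 change was 0.24, with summed levels of 55552 to 63895 in DON against 49868 to 51116 normalized counts in controls. The log2 change was -0.04 for Trdc, 0.42 for Cd3d, 0.30 for Cd3g, 0.24 for Cd247 and 0.23 for Cd3e. Markers of other cells were present in every library. Of 13 B cell markers, 12 were called lower in DON, with summed levels of 49635 to 56342 in DON against 72279 to 75499 normalized counts in controls. Of 9 neutrophil markers, 7 were called lower (2423 to 2869 in DON against 11269 to 11947 in controls). Of 14 macrophage markers, 6 were called higher and 1 lower (30241 to 33298 in DON against 30484 to 31147 in controls), and of 8 erythroid markers 1 was called higher (29455 to 34561 in DON against 25618 to 26552 in controls). No marker was at 0 in all libraries, and the part of these cells in the results that follow was not tested.

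Few nuclear oxidative phosphorylation genes passed the test, and all that did were higher in DON. Of 90 tested genes, 3 were called higher and 0 lower at an adjusted p under 0.05 (limma across all 17185 tested genes, Benjamini-Hochberg), which is 3.33% of them higher. Over all tested genes, 2.3% were called higher and 4.15% lower, so the share called higher was near the background. The 3 genes were Ndufa6 of complex I, Atp5g2 of complex V and Atp5sl, an associated factor. Without adjustment, 21 of the 90 had p under 0.05 (23.3%, against 25.5% of all tested genes). edgeR's quasi-likelihood test called 3 of the 90 higher and 0 lower, against 2.09% and 3.71% of all genes, and DESeq2 called 6 higher and 0 lower, against 4.67% and 8.01%. Fewer cells of a type and less RNA per cell cannot be told apart in these bulk libraries.

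The direction of the small differences was uneven. The log2 change was positive for 67 of the 90 genes (74.4%), with a median of 0.11, against a median of 0.00 over all 17185 tested genes, of which 8601 were positive. Their transcripts are short, with a median of 863 bases against 2476 over all tested genes. After a correction for transcript length the median log2 change of the 90 was 0.062, against 0.015 over all tested genes. After one for transcript GC content it was 0.113, against 0.054. The part of length in this direction was not tested. Every DON library lay above every control library for 25 of the 90 (27.8%, against 15.7% of all tested genes) and below for 6 (6.67%, against 15.7%). The 95% interval of the log2 change lay within ±0.5 for 60 of the 90 genes and within ±1 for 85. As far as the spread among these libraries goes, that leaves room only for modest differences in most of them. If that spread is only technical, the intervals are too narrow to bound the effect of DON.

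**Figure D1:**
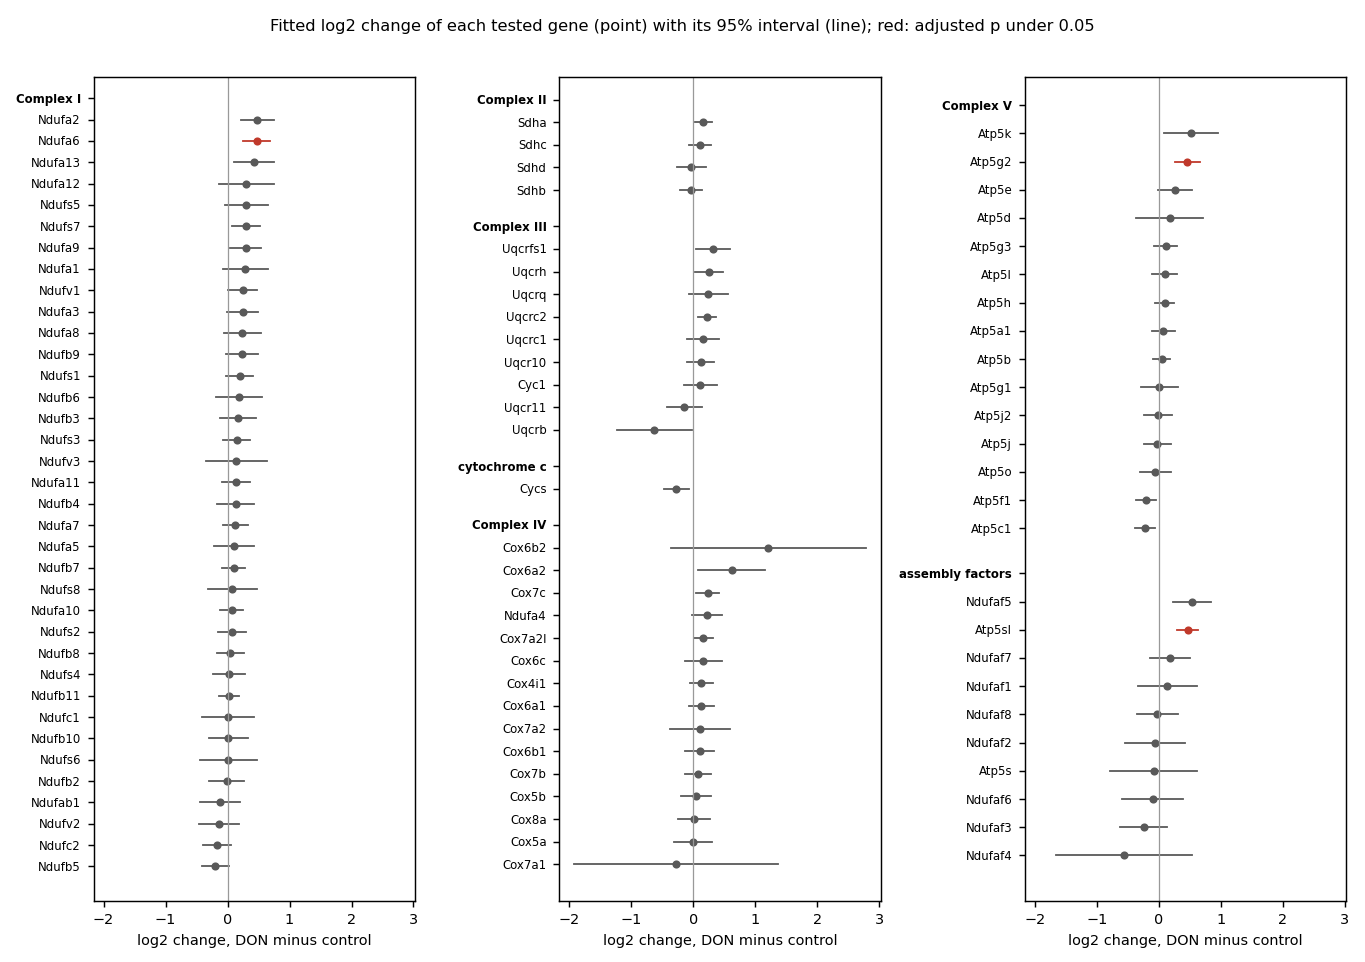
Fitted log2 change, DON minus control, of each of the 90 tested genes, with complexes and factors as blocks down the page and the 95% interval as a line. Ndufa6, Atp5g2 and Atp5sl, in red, had an adjusted p under 0.05, and most points of complexes I, III and IV lie to the right of 0.

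The 3 genes called higher each differed by about the same amount. Ndufa6, an accessory subunit of complex I that holds the mitochondrial acyl carrier protein (ENSMUSG00000022450.5, chromosome 15, 82350139 to 82354291, minus strand), stood at 2717, 3354 and 3332 normalized counts in DON libraries 1 to 3 and at 2309, 2233 and 2218 in control libraries 1 to 3. The lowest DON library, number 1, was above the highest control. Its log2 change was 0.47 (SE 0.10, limma adjusted p = 0.0325, higher in 3 of 3 DON libraries).

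Atp5g2, 1 of the 3 genes for the c subunit of the rotor ring of complex V (ENSMUSG00000062683.11, chromosome 15, 102662864 to 102672352, minus strand), had 3757, 4593 and 3937 normalized counts in DON and 2941, 2997 and 2955 in control libraries. The control values lay close together and all DON values were above them, number 2 the highest. The log2 change was 0.46 (SE 0.09, limma adjusted p = 0.0254). Atp5sl, named for a likeness to an ATP synthase factor and known in human cells as an assembly factor of the membrane arm of complex I (ENSMUSG00000057229.11, chromosome 7, 25619414 to 25625551, plus strand), had 3102, 3250 and 3305 normalized counts in DON and 2233, 2439 and 2328 in controls. Here DON library 1 stood with the other two, and the groups were far from overlapping. The log2 change was 0.46 (SE 0.07, limma adjusted p = 0.0121).

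With any 1 library left out, the log2 changes stayed positive. With DON library 1 left out, the limma adjusted p was 0.00119 for Ndufa6, 0.00428 for Atp5g2 and 0.00318 for Atp5sl. Without any 1 of the other 5 libraries, the log2 change of Ndufa6 was 0.42 to 0.49 (limma adjusted p from 0.0968 to 0.12) and that of Atp5g2 0.38 to 0.49 (0.0604 to 0.0991), so neither passed. The log2 change of Atp5sl was 0.43 to 0.50 in those fits; it passed without control library 2 (adjusted p = 0.043) and missed the threshold without control library 1 or 3 or DON library 2 or 3 (0.0603, 0.062, 0.0505 and 0.0533). In the same 5 fits the genes called over the whole table numbered 260.0 to 391, against 1108 with all libraries. With DON library 1 as the only DON library, the log2 changes were 0.27, 0.34 and 0.41 for Ndufa6, Atp5g2 and Atp5sl, and none passed in a fit whose spread came from the 3 controls alone. After correction for transcript GC content they were 0.44, 0.43 and 0.43, with limma adjusted p = 0.0168, 0.0121 and 0.00846.

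The promoters of the called genes are given because the motifs of NRF1 and YY1, transcription factors known from respiratory genes, occur in them. Each is a RefSeq window on GRCm38.p6 of 300 bases, from 250 before to 50 after a transcription start, read 5′ to 3′ on the gene's strand. Capitals mark the motif found on either strand: that of NRF1 (GCGC, any 1 base, then TGCGC) in Ndufa6 (starting 23 bases into the transcript; chr15:82354242-82354541, minus strand) and Atp5g2 (starting 42 bases before the start; chr15:102670998-102671297, minus strand), and that of YY1 (AAGATGGC) in Atp5sl (starting 26 bases into the transcript; chr7:25619164-25619463, plus strand).
Ndufa6: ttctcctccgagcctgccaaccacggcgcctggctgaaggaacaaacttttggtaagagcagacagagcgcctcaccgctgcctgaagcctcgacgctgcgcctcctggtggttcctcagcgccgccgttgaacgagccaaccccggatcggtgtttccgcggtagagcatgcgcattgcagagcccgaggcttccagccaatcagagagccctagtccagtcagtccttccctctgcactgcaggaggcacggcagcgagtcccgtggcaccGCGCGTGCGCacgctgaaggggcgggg
Atp5g2: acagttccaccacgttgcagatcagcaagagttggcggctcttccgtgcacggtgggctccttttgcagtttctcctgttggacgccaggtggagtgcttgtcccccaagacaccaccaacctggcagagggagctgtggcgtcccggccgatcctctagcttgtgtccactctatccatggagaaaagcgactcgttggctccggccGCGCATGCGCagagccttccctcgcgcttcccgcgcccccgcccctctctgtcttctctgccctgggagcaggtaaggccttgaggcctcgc
Atp5sl: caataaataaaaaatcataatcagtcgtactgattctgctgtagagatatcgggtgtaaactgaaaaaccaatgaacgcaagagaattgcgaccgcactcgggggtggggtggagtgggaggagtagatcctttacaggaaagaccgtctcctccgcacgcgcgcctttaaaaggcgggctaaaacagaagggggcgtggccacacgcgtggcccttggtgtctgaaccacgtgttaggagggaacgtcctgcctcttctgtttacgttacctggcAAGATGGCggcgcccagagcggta
Among the 78 members with a promoter in the table, 18 held the NRF1 motif (23.1%, against 6.6% of 17492 promoters of coding genes), 11 the YY1 motif (14.1% against 3.22%) and 17 the ETS motif CCGGAAG (21.8% against 11.9%), which was in none of the windows printed above. At least 1 of the 3 was in 40 of the 78 (51.3%, against 19.5%). The median GC content of these windows was 58.5% for the members and 56.3% for coding genes, and the NRF1 and ETS motifs are themselves rich in G and C. A match describes the letters of the window only.

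Complex I, the NADH dehydrogenase, had 36 tested subunit genes, of which 1 was called higher, 0 were called lower and 35 did not pass. The log2 change was positive for 31 of them, with a median of 0.13 and a range of -0.20 to 0.48. Together they took 0.0995%, 0.114% and 0.112% of all normalized counts in DON libraries 1 to 3 and 0.0979%, 0.0967% and 0.0967% in controls. All DON libraries were above all controls, DON library 1 by the least. The median log2 change was 0.19 without DON library 1, 0.089 without DON library 2, 0.047 with DON library 1 as the only DON library, and 0.069 after a correction for transcript length.

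Ndufa2, a small accessory subunit with a thioredoxin-like fold, had the highest log2 change of complex I and narrowly missed the threshold. It stood at 697, 708 and 754 normalized counts in DON and at 496, 586 and 472 in controls, with no overlap (log2 change 0.48, SE 0.12, limma adjusted p = 0.0518). It was called higher by DESeq2 (adjusted p = 0.0111) and by limma after the GC correction (0.0448) or without DON library 1 (0.0358). Its locus overlaps Tmco6 on the opposite strand, which averaged 1224 in DON and 939 in control libraries. How counting treated strand is not given in these sources, and whether the 2 genes share exons was not checked. Reads from any shared stretch may have counted for either gene.

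Other complex I genes showed the spread behind the median. Ndufa13, an accessory subunit also studied under the name GRIM-19, had 926, 983 and 943 normalized counts in DON and 833, 579 and 726 in controls (log2 change 0.43, limma adjusted p = 0.105). Ndufs1, the largest iron-sulfur subunit, had 2514, 2620 and 2611 in DON and 2296, 2492 and 2010.0 in controls (0.19, adjusted p = 0.234). The Ndufs1 locus overlaps Eef1b2 on the opposite strand, which was higher than Ndufs1 itself, at 9708 in DON and 9869 in controls. Ndufv1, which binds NADH and the flavin, had 981, 1063 and 1054 in DON and 866, 793 and 957 in controls (0.25, adjusted p = 0.178). For all of these the DON libraries lay above the controls without passing the test.

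The lowest log2 changes of complex I were those of Ndufb5 (-0.20) and Ndufc2 (-0.17), accessory subunits of the membrane arm, and Ndufv2 (-0.14), an iron-sulfur subunit next to Ndufv1. Ndufb5 stood at 858, 954 and 960.4 normalized counts in DON and at 1124, 1003 and 1048 in controls, so every DON library was lower, yet the limma adjusted p was 0.24. The Ndufb5 locus overlaps Mrpl47 on the opposite strand, at 404 in DON and 483 in controls. Ndufc2 had 556, 540 and 527 in DON and 569, 624 and 634 in controls (adjusted p = 0.329). Ndufv2 overlapped, with 1162, 1484 and 1459 in DON and 1720, 1534 and 1278 in controls (adjusted p = 0.575). After the GC correction the log2 change of Ndufv2 turned to 0.18, while those of Ndufb5 and Ndufc2 were -0.16 and -0.15.

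**Figure D2:**
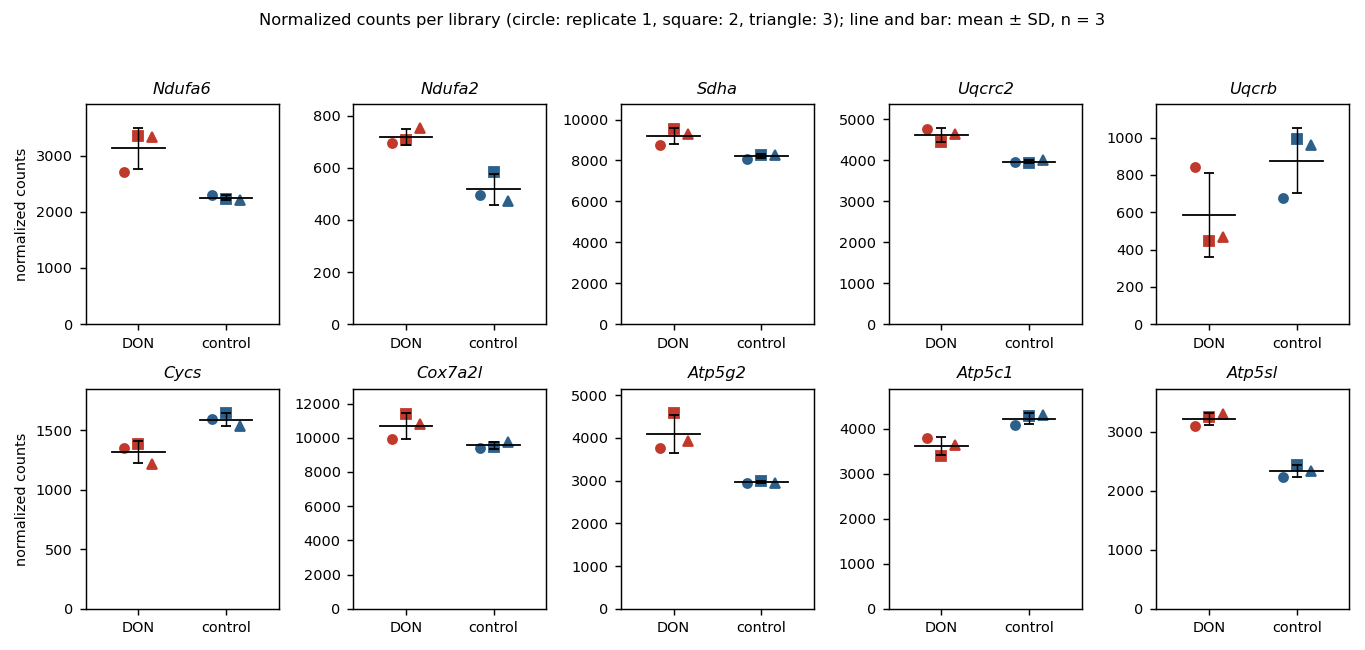
Normalized counts of 10 genes in each library, DON left of control, with a circle, square and triangle for replicates 1, 2 and 3 and the mean ± SD (n = 3) as a line and bar. Ndufa6, Ndufa2, Atp5g2 and Atp5sl show separated groups, Uqcrb shows DON library 1 among the controls, and Cycs and Atp5c1 lie lower in every DON library.

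Complex II, succinate dehydrogenase, is the only complex encoded wholly in the nucleus and is shared with the citric acid cycle. None of its 4 genes passed the test, and the median log2 change was 0.04. Sdha, the flavoprotein that oxidises succinate, had 8733, 9512 and 9306 normalized counts in DON and 8081, 8274 and 8280 in controls, with no overlap (log2 change 0.16, SE 0.06, limma adjusted p = 0.137, and 0.0244 without DON library 1). Sdhb, the iron-sulfur subunit, had 1526, 1591 and 1555 in DON and 1508, 1627 and 1657 in controls (-0.04, adjusted p = 0.812). The membrane anchors Sdhc (0.11) and Sdhd (-0.03) did not pass either.

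The ratio of Sdha to Sdhb normalized counts was 5.72, 5.98 and 5.98 in DON and 5.36, 5.08 and 5.00 in controls. The groups did not overlap, and the exact permutation p (two-sided) was 0.1, the smallest that 3 against 3 libraries allow. It was 0.15 after Benjamini-Hochberg adjustment over the 6 ratios compared. The ratio of Ndufa6 to Ndufs1 averaged 1.21 in DON and 1.00 in controls (exact permutation p = 0.2, and 0.24 adjusted). That of Atp5a1 to Atp5b averaged 0.786 in DON and 0.769 in controls (exact permutation p = 0.5, and 0.5 adjusted). Both overlapped between the groups. Several numerators of the 6 are genes that themselves lay apart between the groups, so the ratios are not separate evidence.

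Complex III, the cytochrome bc1 complex, had 9 tested genes, of which none passed, 7 had a positive log2 change and the median was 0.16. Its share of all normalized counts was 0.0507%, 0.0577% and 0.0554% in DON and 0.0480%, 0.0479% and 0.0480% in controls. The 3 controls were nearly the same, and all DON libraries were above them. The median log2 change was 0.20 without DON library 1 and 0.080 with it alone.

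Among its members, Uqcrc2, a core protein facing the matrix, had 4770.3, 4438 and 4654 normalized counts in DON and 3951, 3938 and 4002 in controls. The separation was the clearest of the complex, DON library 1 being the highest (log2 change 0.22, SE 0.06, limma adjusted p = 0.0742). DESeq2 called it higher (adjusted p = 0.0453), as did limma after the GC correction, where the log2 change was 0.39 (0.0141). Uqcrfs1, the Rieske iron-sulfur protein, had 2035, 2841 and 2402 in DON and 1870.1, 1933 and 1972 in controls (0.32, adjusted p = 0.147). Uqcrh, the hinge protein, had 2869, 3497 and 2936 in DON and 2728, 2642 and 2419 in controls (0.25, adjusted p = 0.156). Both lay higher in every DON library, DON library 2 being the highest, and Uqcrfs1 was called higher without DON library 1 (adjusted p = 0.015).

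Uqcrb, a small subunit beside the ubiquinone site, went the other way and split the DON group. It stood at 843, 444 and 467 normalized counts in DON libraries 1 to 3 and at 676, 995 and 960 in controls 1 to 3. DON library 1 lay within the control range, and the log2 change of -0.63 (SE 0.26) had a limma adjusted p of 0.185. It was called lower without DON library 1 (log2 change -0.92, adjusted p = 0.0124), and with DON library 1 alone the log2 change was -0.04. Its 3 copies at least 95% identical over 150 or more bases summed to an average of 8.89 in DON and 25.2 in control libraries.

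Cyc1, the cytochrome c1 of complex III, and Uqcrc1, the other core protein, showed positive log2 changes of 0.12 and 0.16 with overlapping groups (limma adjusted p = 0.566 and 0.398). Uqcrc1 was called higher without DON library 1 (adjusted p = 0.0439). Uqcr11, the smallest subunit, lay lower in every DON library (-0.15, adjusted p = 0.492). Uqcr10 shares sequence with a listed copy that had more counts than the gene in DON and fewer in controls. The copy averaged 849 in DON and 677 in control libraries, against 790 and 725 for Uqcr10, so the value of Uqcr10 is uncertain.

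Cycs, which encodes the cytochrome c of somatic cells, was lower in every DON library without passing the test. It had 1354, 1384 and 1215 normalized counts in DON and 1592, 1649 and 1534 in controls (log2 change -0.27, SE 0.09, limma adjusted p = 0.0981). After the GC correction its log2 change turned to 0.12 (adjusted p = 0.58). Its 4 near-identical copies summed to 85.8 in DON and 176 in controls.

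Complex IV, cytochrome c oxidase, is where tissue-specific isoforms are most common, and the widespread form of each pair was the more abundant one here. Per kilobase of transcript, Cox4i1 averaged 5455 normalized counts in DON and 4964 in controls, against 1.75 and 0.94 for Cox4i2, known from lung. Cox6a1 averaged 5259 in DON and 4793 in controls per kilobase, against 108 and 69.7 for Cox6a2, the heart and muscle form. Cox7a2 averaged 950.1 in DON and 859 in controls per kilobase, against 36.4 and 34.2 for the muscle form Cox7a1. Cox8a averaged 5012 in DON and 4958 in controls per kilobase, while Cox8b and the testis form Cox8c were listed at 0 in all 6 libraries, as was Cox7b2. Ndufa4l2, a relative of Ndufa4, was listed at 0 in 5 libraries and at 2.05 normalized counts in control library 3. These low genes, with Cox4i2, were the 5 members left untested.

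None of the 15 tested complex IV genes passed, 13 had a positive log2 change and the median was 0.13. Their share of all normalized counts was 0.0796%, 0.0931% and 0.0905% in DON and 0.0801%, 0.0790% and 0.0787% in controls, so DON library 1 fell within the control range and the other two lay above it. The median log2 change was 0.19 without DON library 1, 0.085 without DON library 2, 0.054 with DON library 1 alone, and 0.067 after a correction for transcript length.

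Cox7a2l, a factor that joins complexes III and IV and is shortened in C57BL/6 mice, had the highest complex IV level per kilobase (9957 in DON and 8876 in controls). It stood at 9912, 11412 and 10817 normalized counts in DON and at 9416, 9465 and 9771 in controls (log2 change 0.16, SE 0.07, limma adjusted p = 0.177, and 0.0201 without DON library 1). Cox7c, a small structural subunit, had 1947, 2186 and 2138 in DON and 1769, 1692 and 1872 in controls (0.23, adjusted p = 0.129, and 0.0428 without DON library 1). The groups did not overlap for either gene.

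Of the other widespread members of complex IV, Cox4i1 and Cox6a1 both had a log2 change of 0.13, at the median of the complex (limma adjusted p = 0.319 and 0.368). The log2 changes of Cox5a, Cox5b and Cox8a lay nearer 0, at -0.00, 0.04 and 0.01 (adjusted p = 0.993, 0.844 and 0.961). Ndufa4, long counted with complex I and now placed in complex IV, had 1184, 1275 and 1137 normalized counts in DON and 1145, 985 and 953 in controls (0.22, adjusted p = 0.218).

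The muscle form Cox6a2 was low but lay apart between the groups, at 69.8, 80.3 and 69.9 normalized counts in DON and 46.9, 43.9 and 51.3 in controls (log2 change 0.62, SE 0.23, limma adjusted p = 0.147). The ratio of Cox6a2 to Cox6a1 was 0.0253, 0.0250 and 0.0230 in DON and 0.0160, 0.0166 and 0.0195 in controls (exact permutation p = 0.1, the smallest possible, and 0.15 adjusted over the 6 ratios). Its locus overlaps Itgad on the opposite strand, at 177 in DON and 155 in controls. Cox6b2 and Cox7a1 were lower still and their values scattered: Cox7a1 had 30.6, 6.24 and 6.08 in DON and 10.8, 13.2 and 16.4 in controls.

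**Figure D3:**
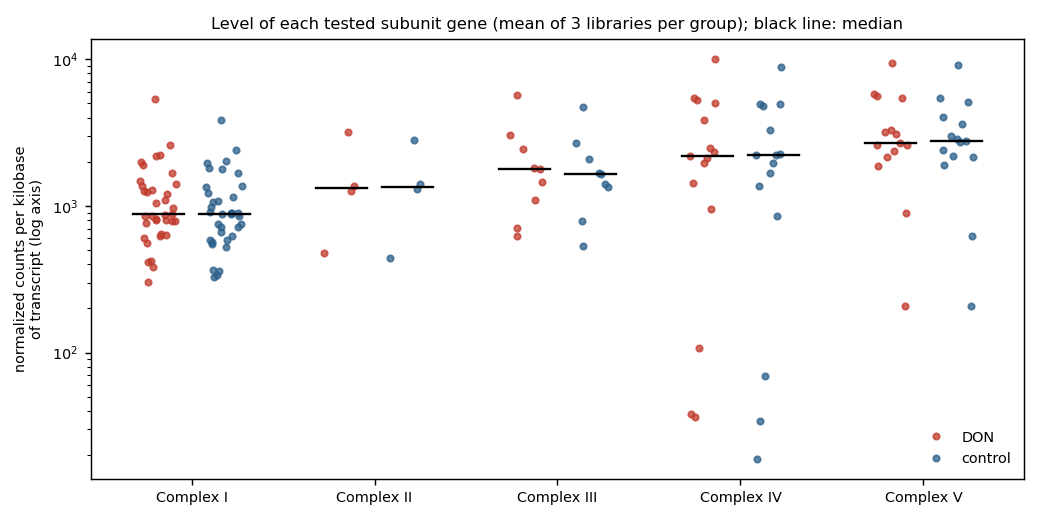
Level of each tested subunit gene in normalized counts per kilobase of its main annotated transcript, on a log axis, DON left of control, one point per gene (mean of 3 libraries) and the median as a black line. Complex I genes centre lowest (median 874 in DON and 887 in controls) and complex V genes highest (2696 in DON and 2781 in controls), and the low points of complex IV are Cox6a2, Cox7a1 and Cox6b2.

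Complex V, ATP synthase, had 15 tested genes, 1 called higher, 0 called lower and 14 not passing, with 10 positive log2 changes and a median of 0.08. Its share of all normalized counts was 0.158%, 0.183% and 0.167% in DON and 0.163%, 0.162% and 0.159% in controls. DON library 1 was below all controls and DON library 2 well above them. The median log2 change was 0.0031 without DON library 2, 0.031 after the length correction, and -0.038 with DON library 1 as the only DON library. The catalytic subunits were the most abundant: Atp5b, the β subunit, had 17243, 19133 and 17835 normalized counts in DON and 18128, 17122 and 17262 in controls, and Atp5a1, the α subunit, 12993, 15521 and 14135 in DON and 14292, 13054 and 13069 in controls. Their log2 changes were 0.04 and 0.08 (limma adjusted p = 0.679 and 0.59), and their groups overlapped.

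The c subunit is encoded by Atp5g1, Atp5g2 and Atp5g3, whose mature proteins are identical and whose targeting peptides differ. Only Atp5g2 of the 3 passed the test. Atp5g1 had 918, 1148 and 882 normalized counts in DON and 879.8, 991 and 1047 in controls (log2 change 0.01, 95% interval -0.29 to 0.30, limma adjusted p = 0.975). Per kilobase it was the lowest of complex V (208 in DON and 206 in controls), on an annotated transcript of 4715 bases. Atp5g3 had 1917, 1801 and 1817 in DON and 1610.1, 1749 and 1778 in controls (0.11, interval -0.07 to 0.29, adjusted p = 0.42). Beside the values of Atp5g2 above, the ratio of Atp5g2 to the sum of Atp5g1 and Atp5g3 was 1.33, 1.56 and 1.46 in DON and 1.18, 1.09 and 1.05 in controls. The ratios did not overlap, with an exact permutation p of 0.1, the smallest that 3 against 3 libraries allow, and 0.15 adjusted over the 6 ratios. The summed counts of the 3 genes were 6592, 7541 and 6637 in DON and 5431, 5737 and 5781 in controls, with Atp5g2 supplying 59.2% in DON and 52.5% in controls. The 2 near-identical copies of Atp5g2 summed to 152 in DON and 119 in controls.

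The promoters of the other two c subunit genes are given for comparison with that of Atp5g2 above. They are RefSeq windows of the same kind on GRCm38.p6, and capitals again mark the NRF1 motif, which starts 12 bases into the Atp5g3 transcript (chr2:73911277-73911576, minus strand). In the window of Atp5g1 (chr11:96075582-96075881, minus strand) none of the 3 motifs was found.
Atp5g1: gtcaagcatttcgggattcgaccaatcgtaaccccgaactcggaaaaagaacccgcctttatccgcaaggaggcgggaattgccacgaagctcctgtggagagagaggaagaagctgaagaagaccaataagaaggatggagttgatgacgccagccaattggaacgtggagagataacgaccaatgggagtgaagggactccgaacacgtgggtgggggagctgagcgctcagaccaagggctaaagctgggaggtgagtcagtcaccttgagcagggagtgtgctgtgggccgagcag
Atp5g3: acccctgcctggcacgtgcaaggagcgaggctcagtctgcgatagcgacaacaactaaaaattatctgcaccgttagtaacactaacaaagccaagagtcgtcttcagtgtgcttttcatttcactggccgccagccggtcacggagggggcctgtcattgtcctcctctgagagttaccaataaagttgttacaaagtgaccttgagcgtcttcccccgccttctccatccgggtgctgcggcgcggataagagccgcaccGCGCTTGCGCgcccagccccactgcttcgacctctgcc
The Atp5g3 and Atp5g2 windows both held the NRF1 motif, while their log2 changes were 0.11 and 0.46.

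The lowest log2 changes of complex V were those of Atp5c1 and Atp5f1. Atp5c1, the γ subunit of the rotor shaft, had 3785, 3388 and 3642 normalized counts in DON and 4074, 4285 and 4309 in controls (log2 change -0.23, SE 0.07, limma adjusted p = 0.0915). Atp5f1, subunit b of the side stalk, had 4059, 3717 and 3571 in DON and 4405, 4344 and 4278 in controls (-0.20, SE 0.07, adjusted p = 0.125). Every DON library was below every control for both, and both were called lower without DON library 1 (adjusted p = 0.0281 and 0.0219). The locus of Atp5f1 overlaps Wdr77 on the opposite strand, at 1581 in DON and 1227 in controls. Atp5o, the subunit that ties the side stalk to the catalytic head, overlapped between groups (-0.05, adjusted p = 0.791), and its listed locus spans Donson and Cryzl1 on the same strand. Among other stalk subunits the log2 change was 0.18 for Atp5d, 0.26 for Atp5e, 0.09 for Atp5h and -0.03 for Atp5j, and none passed.

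The ratio of Atp5c1 to the sum of Atp5a1 and Atp5b, which belong to the same catalytic head, was 0.125, 0.0978 and 0.114 in DON and 0.126, 0.142 and 0.142 in controls. The highest DON value, of library 1, was just under the lowest control (exact permutation p = 0.1, the smallest possible, and 0.15 adjusted over the 6 ratios). Atp5k, subunit e, had 322, 372 and 294 normalized counts in DON and 178, 256 and 264 in controls (log2 change 0.52, SE 0.19, limma adjusted p = 0.14). Atp5e, the small ε subunit, had 935, 1189 and 1135 in DON and 848, 971 and 887 in controls (0.26, adjusted p = 0.209, and 0.0409 without DON library 1). Atp5d, the δ subunit, stood at 4279 in DON library 2 and 3310 in control library 2, against 2311 to 2496 in the other 4 libraries, and had an adjusted p of 0.678. It was picked out after its values were seen.

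**Figure D4:**
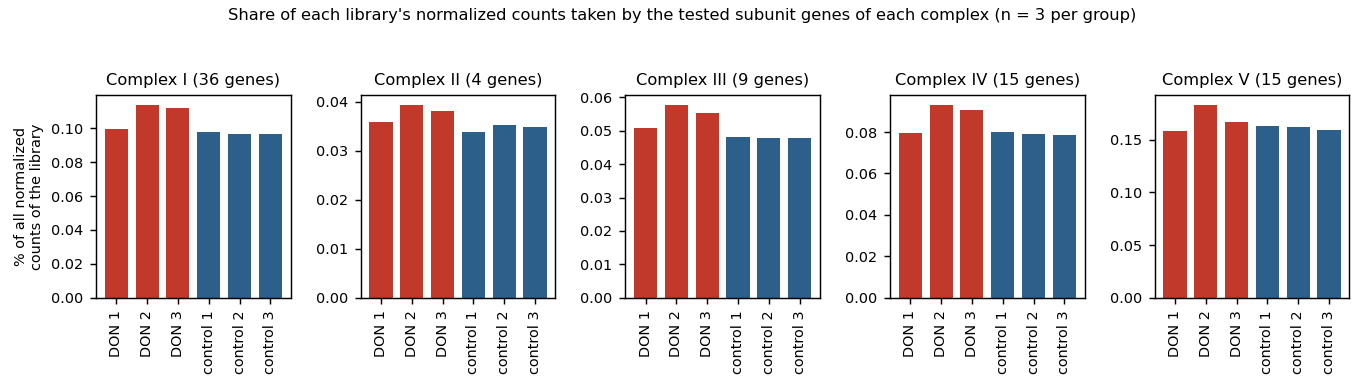
Share of all normalized counts, in %, taken by the tested subunit genes of complexes I to V in each library, DON left of control, bars from 0. DON library 2 is the highest in every complex, while DON library 1 is within the control range in complex IV and just below it in complex V.

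Of the 10 assembly and associated factors, 1 (Atp5sl) was called higher, 0 were called lower and 4 had a positive log2 change, with a median of -0.04. Ndufaf5, which modifies an iron-sulfur subunit during complex I assembly, had 318, 351 and 289 normalized counts in DON and 227, 217 and 213 in controls, with no overlap (log2 change 0.54, SE 0.14, limma adjusted p = 0.0575). DESeq2 and limma after the GC correction called it higher (adjusted p = 0.0204 and 0.0361). Ndufaf4, a complex I assembly factor picked out after its values were seen, had 185, 341 and 336 in DON and 184, 629 and 589 in controls. Library 1 of each group was low, and the log2 change of -0.56 (SE 0.47) had an adjusted p of 0.498. Ndufaf7 shares a stretch with 8 other genes that summed to 5438 in DON and 5235 in controls, so its value is uncertain.

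The 3 DON libraries were each set against the range of the controls, with no test. DON library 1 lay above all 3 controls for 32 of the 90 genes and below for 17, while DON library 2 lay above for 60 and below for 13, and DON library 3 above for 48 and below for 13. Over all tested genes the 3 DON libraries lay above the controls for 31.2%, 35.0% and 34.1% and below for 31.5%, 34.4% and 34.8%. In complex I, DON library 2 lay above the controls for 26 of 36 genes and DON library 1 for 13. In complex V the counts were 11 of 15 for DON library 2, 5 for DON library 3 and 4 for DON library 1.

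Without DON library 1, 13 of the 90 genes were called higher (14.4%) and 3 lower (3.33%), while 6.51% of all tested genes were called higher and 12.3% lower. The 13 were 5 genes of complex I (Ndufa2, Ndufa6, Ndufa8, Ndufa9, Ndufs7), Sdha, Uqcrc1, Uqcrfs1, Cox7a2l, Cox7c, Atp5e, Atp5g2 and Atp5sl. The 3 lower were Uqcrb, Atp5c1 and Atp5f1. This fit keeps DON libraries 2 and 3, which stood apart in base composition. With a different library left out, the limma adjusted p reached 0.331 for Sdha, 0.692 for Uqcrc1 and 0.341 for Uqcrfs1. It reached 0.411 for Cox7a2l, 0.315 for Cox7c and 0.25 for Atp5c1. With DON library 1 as the only DON library, the spread came from the 3 controls alone and the lone library was assumed to vary like them. In that fit 0 of the 90 were called, and few genes were called at all, 0.355% of all tested genes higher and 1.73% lower. After the GC correction 6 were called higher and 0 lower, with Ndufa2, Ndufaf5 and Uqcrc2 added. That correction also shifted the split over all tested genes to 4.88% higher and 4.06% lower, and the median log2 change of all tested genes to 0.05. Across the 90 genes the Spearman correlation of the log2 change with transcript GC content was 0.17, against 0.38 over all tested genes. With transcript length it was -0.15, against -0.23 over all tested genes. These points share their libraries.

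**Figure D5:**
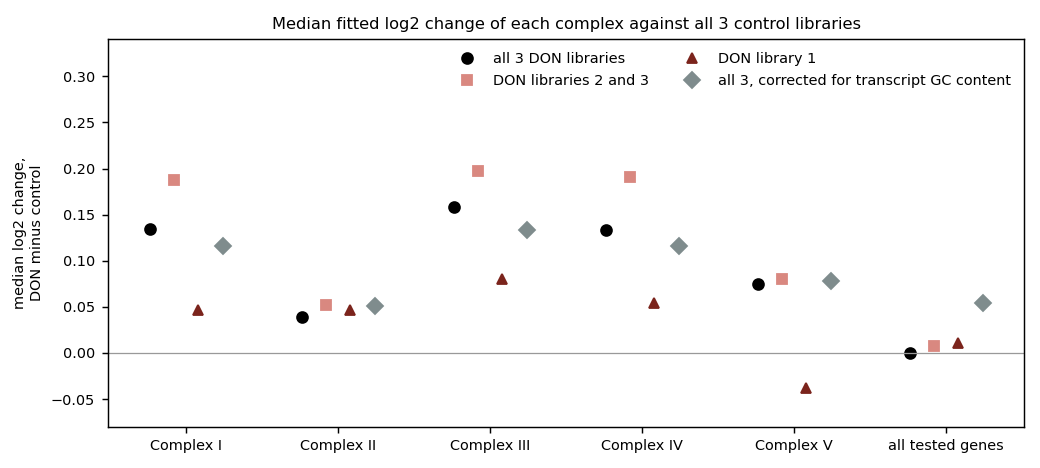
Median fitted log2 change, DON minus control, of the tested genes of each complex and of all tested genes, with all 3 DON libraries, DON libraries 2 and 3, DON library 1, and all 3 after the GC correction, always against the 3 controls. Complexes I, III and IV have their highest medians, 0.19 to 0.20, with DON libraries 2 and 3, and with DON library 1 alone the medians are 0.047 to 0.080 there and -0.038 in complex V.

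Genes that build and regulate the complexes were read from the same fit. Of 23 tested genes for cytochrome c oxidase assembly, 2 were called higher, 1 lower and 20 did not pass, with a median log2 change of 0.05. Over all tested genes, 2.3% were called higher and 4.15% lower. Oxa1l, the insertase that places mitochondrially made subunits into the inner membrane, had 4059, 4230.4 and 4254 normalized counts in DON and 3000.2, 2897 and 2941 in controls. The groups were well apart (log2 change 0.50, SE 0.06, limma adjusted p = 0.00532), and the call held with any one library left out (0.00117 to 0.0388). With DON library 1 as the only DON library its adjusted p was 0.0535.

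Cox18 and Cox20 both handle the mitochondrially made Cox2 subunit and went opposite ways. Cox18, which moves its tail across the membrane, had 709.6, 752 and 769.97 normalized counts in DON and 576, 519 and 428 in controls (log2 change 0.56, SE 0.13, limma adjusted p = 0.0462). Cox20, its chaperone, had 2059, 1153 and 981 in DON and 2669.7, 3141 and 3107 in controls (-1.16, SE 0.25, adjusted p = 0.0371). DON library 1 stood between the other DON libraries and the controls for Cox20. By edgeR the adjusted p was 0.0531 for Cox18 and 0.053 for Cox20. Leaving out DON library 1 gave a limma adjusted p of 0.0298 for Cox18 and 0.000238 for Cox20, and without any other single library neither passed (0.0707 to 0.14 and 0.0968 to 0.133). In those fits the log2 change was 0.44 to 0.66 for Cox18 and -1.24 to -0.94 for Cox20.

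In the other lists none passed: 0 of 8 genes for complex I assembly outside the Nduf names, 0 of 14 for the assembly of complexes II, III and V, 0 of 13 for coenzyme Q synthesis and 0 of 21 regulators of mitochondrial genes. Their median log2 changes were 0.15, 0.08, -0.05 and -0.07. At an unadjusted limma p under 0.05 stood 0, 2, 3 and 4 of them, against 25.5% of all tested genes. By edgeR 0 were called in each, against 2.09% of all tested genes higher and 3.71% lower. For Nrf1, the factor of the motif above, the log2 change was 0.26 (limma adjusted p = 0.138), for Yy1 -0.13 (0.207), for Gabpa, an ETS factor, -0.17 (0.304) and for Ppargc1a, the coactivator of mitochondrial biogenesis, -0.01 (0.987). With the GC correction the log2 changes of Nrf1, Yy1, Gabpa and Ppargc1a were 0.23, -0.14, 0.18 and 0.32, so those of Gabpa and Ppargc1a changed sign.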

How the data were processed

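The 6 libraries were made from Trizol-extracted total RNA with an mRNA-seq kit, per the labels' protocols. The submitters' processing notes mention HISAT2, StringTie, mm8 and mm10 without saying what each was used for. The deposited columns are normalized counts per the file headers, that is a signal which the authors scaled library by library. All values were whole multiples of 1 library-specific step (100%, tolerance 0.001), and dividing by it gave recovered counts. A unit need not be 1 read: between 854 and 903 genes in a library had 4 units, and only 382 to 446 had 3. Gene positions are those of the files, and 49909 of 52550 equalled GENCODE M21 on GRCm38 (mm10).

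Differences were fitted in R 4.3.3 by limma 3.58.1 (two-sided tests, eBayes using the variance trend) to the log2 of the deposited normalized count plus a pseudocount of 1, DON minus control. The fit held the 17185 genes that reached 10 normalized counts in 3 or more libraries, and p-values were adjusted by Benjamini-Hochberg with 0.05 as the threshold. Fold changes on this scale understate the change of low genes. Genes sharing a symbol were summed. In simulated data, 100 genes were planted at a log2 change of 1 and 100 at 2, and the fit recovered 93% and 100%. It made 201 calls, of which 8 were false. The planted genes were drawn only from those above a set mean level. The simulated libraries held no shift with GC content or length, unlike DON libraries 2 and 3. These rates therefore need not hold for the real data. Smaller changes, like those of most genes here, were not planted, so their recovery is not known. Alternatives, whose effect is given at the end, included edgeR 4.0.16 and DESeq2 1.42.0 on recovered counts and a loess correction (span 0.5) for transcript GC content or length. Those using recovered counts divided by 4, both corrections, or the GC correction with DON library 1 alone were chosen after seeing the data. Levels per kilobase used the length of 1 principal GENCODE transcript per gene. Near-identical copies came from BLAST 2.17.0, with 95% identity over 150 bases as the minimum. The listed spans of 37 members overlapped another listed gene, and for 29 such a gene averaged at least 10 normalized counts in controls. Not all of these overlaps are named above.

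Members and lists were chosen with earlier results of these data known. Named genes were members with an adjusted p under 0.05, the 3 highest and 3 lowest log2 changes of each complex, members called by edgeR, DESeq2 or the GC or length correction, called genes of the pathway lists, and a set named whatever their values. Ndufaf4, Atp5d, Ndufa8, Ndufa9, Ndufs7, Uqcr10, Ndufaf7 and the regulators Nrf1, Yy1, Gabpa and Ppargc1a were named after their values were seen. The ratios between genes were not among the planned tests. The spread that the p-values rest on may be technical, since nothing shows the libraries of a group to be independent.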

Additional observations from a re-analysis of the deposited data

How the results depend on the processing

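The 3 genes called higher (0 called lower) became 5 higher with quantile normalization (2.67% of all genes), 6 with DESeq2 (4.67%), 6 with the GC correction (4.88%), 5 with the GC and length corrections (5.62%), and 6 higher (5.43%) and 2 lower (8.19%; Atp5c1 and Cycs) at a threshold of 0.1. It was 0 higher without the variance trend, where only 0.419% of all genes were called higher. With so small a share, that 0 does not set these genes apart. With DON library 1 as the only DON library, the spread came from the controls alone. Calls of these genes are therefore not compared there, with or without the GC correction. Leaving out each library in turn gave 0 to 13 higher (0.378% to 6.51% of all genes) and 0 to 3 lower (at most 12.3%). Over all genes, 1108 were called in the fit reported. The count was 703 with no filter on low values, 363 without the variance trend, 2134 with DESeq2, 358 with DON libraries 2 and 3 left out, 384 with DON library 1 and the GC correction, 2342 at a threshold of 0.1, and 260.0 to 3237 with each library left out in turn. Genes of the pathway lists called numbered 3, against 1 with no filter, 1 without the variance trend, 1 with edgeR, 6 with DESeq2, 5 at a threshold of 0.1, and 1 to 8 with each library left out in turn. Their calls with DON library 1 as the only DON library are not compared either.

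The median log2 change of complex I was 0.047 with DON libraries 2 and 3 left out, 0.069 with the length correction, 0.080 with the GC and length corrections, 0.074 with DON library 1 and the GC correction, and 0.089 to 0.19 with each library left out. That of complex III was 0.19 with quantile normalization, 0.12 with the length correction, 0.11 with the GC and length corrections, 0.080 with DON libraries 2 and 3 left out, 0.076 with DON library 1 and the GC correction, and 0.14 to 0.22 with each library left out. That of complex IV was 0.067 with the length correction, 0.069 with the GC and length corrections, 0.054 with DON libraries 2 and 3 left out, and 0.085 to 0.19 with each library left out. That of complex V turned to -0.038 with DON libraries 2 and 3 left out and to -0.028 with DON library 1 and the GC correction, and was 0.031 with the length correction, 0.050 with the GC and length corrections, and 0.0031 (without DON library 2) to 0.082 with each library left out. That of complex II moved by less than its replicate spread under every alternative run (0.019 to 0.078). The cause of these shifts was not tested.

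Of 1316 values of 60 named genes under the alternatives, 1241 kept their side of the threshold, 51 lost a call and 24 gained one. No called value changed sign, and 68 values of uncalled genes did. Replicate numbers did not pair the libraries (correlation of deviations -0.0559, -0.0545 and -0.052 for equal numbers, 0.0108 to 0.04 for unequal ones). With the replicate number as a block, 0 of the 90 genes, 1 pathway gene and 288 genes in all were called. With 3 libraries a group, the 95% interval of a log2 change had a median half-width of 0.25 over the 90 genes.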
